A study of Mus musculus with 30 samples.

Results

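Lox, Dcn, Lum, Col1a1, Col1a2, Col3a1, Col6a3, S100a4, Thy1 and Postn are 10 genes used as markers of fibroblasts and of the matrix that these cells lay down. They were chosen with earlier results of these data known, and taken by symbol, as the probe sets that name these genes and no other. Each gene had 1 probe set, so 10 of the 19938 genes measured are described, on all 30 arrays. Fibrillar collagens are secreted as procollagen trimers, trimmed outside the cell, assembled into fibrils and joined by lysyl oxidases. Small leucine-rich proteoglycans bind the fibrils and set their spacing, and collagen VI forms a fine network near the cell surface. Fibroblasts and other mesenchymal cells are the main makers of this matrix, while epithelia such as endoderm rest on a basement membrane of other collagens and laminins.

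The series compared mouse embryonic stem (ES) cells, induced pluripotent stem (iPS) cells, the endoderm made from each, and endoderm of the embryo, on Affymetrix arrays. ES cells and both iPS clones, named ST5 and ST8 and all of strain C57BL/6x129SvJae, were taken at day 0, sorted as Sox2bright, and at day 5 of differentiation, sorted as ckit+/Sox2dim. These 6 groups were labelled without amplification. ES cells at day 0 and day 5, with the same sorts, were also labelled after amplification, next to cells of E8.25 Swiss webster embryos. The embryo cells were foregut endoderm, sorted as positive for ENDM1 and Epcam with low side scatter, and a comparison group that was Epcam-positive and ENDM1 negative. Every group had 3 arrays from biological replicates, but the labels do not say whether amplified and unamplified ES arrays share RNA. Each iPS line is a single clone, and the labels used here give neither the culture medium nor whether feeder cells were present. The sort differed between days and the strain between embryo and cultured cells, so sort and day, or strain and origin, cannot be told apart.

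The values are log2 levels after robust multi-array averaging (RMA), which cannot be compared between genes because each probe set binds with its own strength. Median levels over all probe sets were 5.5 to 5.57 on the unamplified arrays and 5.69 to 5.74 on the amplified arrays. A gene was called where its adjusted p in limma was under 0.05 over all 19938 genes, and errors on differences are standard errors (SE) from that fit. Of the genes used for sorting, Sox2 differed by -2.21 ± 0.31 between day 0 and day 5 in ES cells. Kit differed by 0.28 ± 0.40 and was not called (adjusted p = 0.642). All 6 pluripotency genes measured fell and all 6 definitive endoderm genes rose between day 0 and day 5 in every line, with median differences in ES cells of -2.61 and 2.91. Sox2 is 1 of these 6 pluripotency genes, and because the cells were sorted on it, its fall is not separate from the sort.

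The annotation (GRCm38.p6) places Dcn at chromosome 10, 97479500 to 97518163, and Lum next to it at 97565501 to 97572703. Col3a1 lies at chromosome 1, 45311538 to 45349706, and Col6a3 on the same chromosome at 90766860 to 90844001. Postn at 54359267 to 54391041 and S100a4 at 90603770 to 90606045 are both on chromosome 3. Col1a1 is at chromosome 11, 94936224 to 94953042, and Col1a2 at chromosome 6, 4505618 to 4541543. Thy1 lies at chromosome 9, 44043384 to 44048579. The probes of these arrays cover whole genes, with no exon given per probe set.

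RefSeq promoter sequences of this build were searched for 5 of the 10 members, in 6 windows, and Lox was left out of the search. The windows of Col1a2, Col3a1, S100a4 and the downstream start of Postn are shown because they held at least 1 of the motifs searched. The windows of Col6a3 and of the upstream start of Postn held none and are not shown. Each window is the 250 bases before the annotated start, and capitals mark the motif matches.
Col1a2, chr6:4505368-4505617, + strand: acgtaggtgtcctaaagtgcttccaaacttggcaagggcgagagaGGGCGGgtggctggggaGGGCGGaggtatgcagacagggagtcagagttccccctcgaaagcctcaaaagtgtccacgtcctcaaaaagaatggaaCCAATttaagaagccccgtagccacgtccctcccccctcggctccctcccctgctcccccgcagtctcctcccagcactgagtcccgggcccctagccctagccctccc
Col3a1, chr1:45311288-45311537, + strand: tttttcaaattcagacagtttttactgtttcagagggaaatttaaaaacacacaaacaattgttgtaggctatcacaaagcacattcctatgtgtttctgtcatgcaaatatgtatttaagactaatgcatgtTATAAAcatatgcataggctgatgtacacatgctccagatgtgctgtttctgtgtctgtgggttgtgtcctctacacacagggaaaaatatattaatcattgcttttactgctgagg
S100a4, chr3:90603520-90603769, + strand: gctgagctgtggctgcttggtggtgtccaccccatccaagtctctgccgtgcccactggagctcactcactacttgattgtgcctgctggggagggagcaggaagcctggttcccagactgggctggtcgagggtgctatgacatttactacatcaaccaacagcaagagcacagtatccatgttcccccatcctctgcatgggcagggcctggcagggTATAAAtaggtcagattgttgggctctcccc
Postn, chr3:54360857-54361106, + strand: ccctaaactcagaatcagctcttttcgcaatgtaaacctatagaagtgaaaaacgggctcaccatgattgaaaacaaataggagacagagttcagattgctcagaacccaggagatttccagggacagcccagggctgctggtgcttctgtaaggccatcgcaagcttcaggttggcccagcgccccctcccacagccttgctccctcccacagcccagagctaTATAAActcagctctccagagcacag
The motifs searched, on both strands, were TATAAA (the TATA box), CCAAT (the CCAAT box), GGGCGG (an Sp1-type GC box) and TGANTCA (an AP-1 type site), none of which overlaps another in these windows. TATAAA began at -31 in S100a4, at -26 at the downstream start of Postn and at -117 in Col3a1. The Col1a2 window held CCAAT at -109 and GGGCGG at -205 and -188. Over 32851 promoter windows of the same length, 12.4% held TATAAA, 33.8% CCAAT, 32.7% GGGCGG and 6.75% TGANTCA. These matches describe letters only. The windows shown were picked for holding a match, so these shares are no comparison for them.

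All 10 members were called lower at day 5 than at day 0 in all 3 lines. The share of all genes called lower was 19.7% for ES cells, 24.8% for ST5 and 19.5% for ST8. Because the members were chosen with earlier results of these data known, these shares describe the members and do not test them. The median difference of the members was -2.47 for ES cells, -2.96 for ST5 and -2.97 for ST8, while the medians over all genes were 0.02, -0.04 and -0.01. Falls of at least 2-fold were called for 8 members in ES cells (2.96% of all genes), 9 in ST5 (4.92%) and 8 in ST8 (3.16%). Since these are bulk RNA samples, fewer cells of a type and less RNA per cell cannot be told apart.

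**Figure D1:**
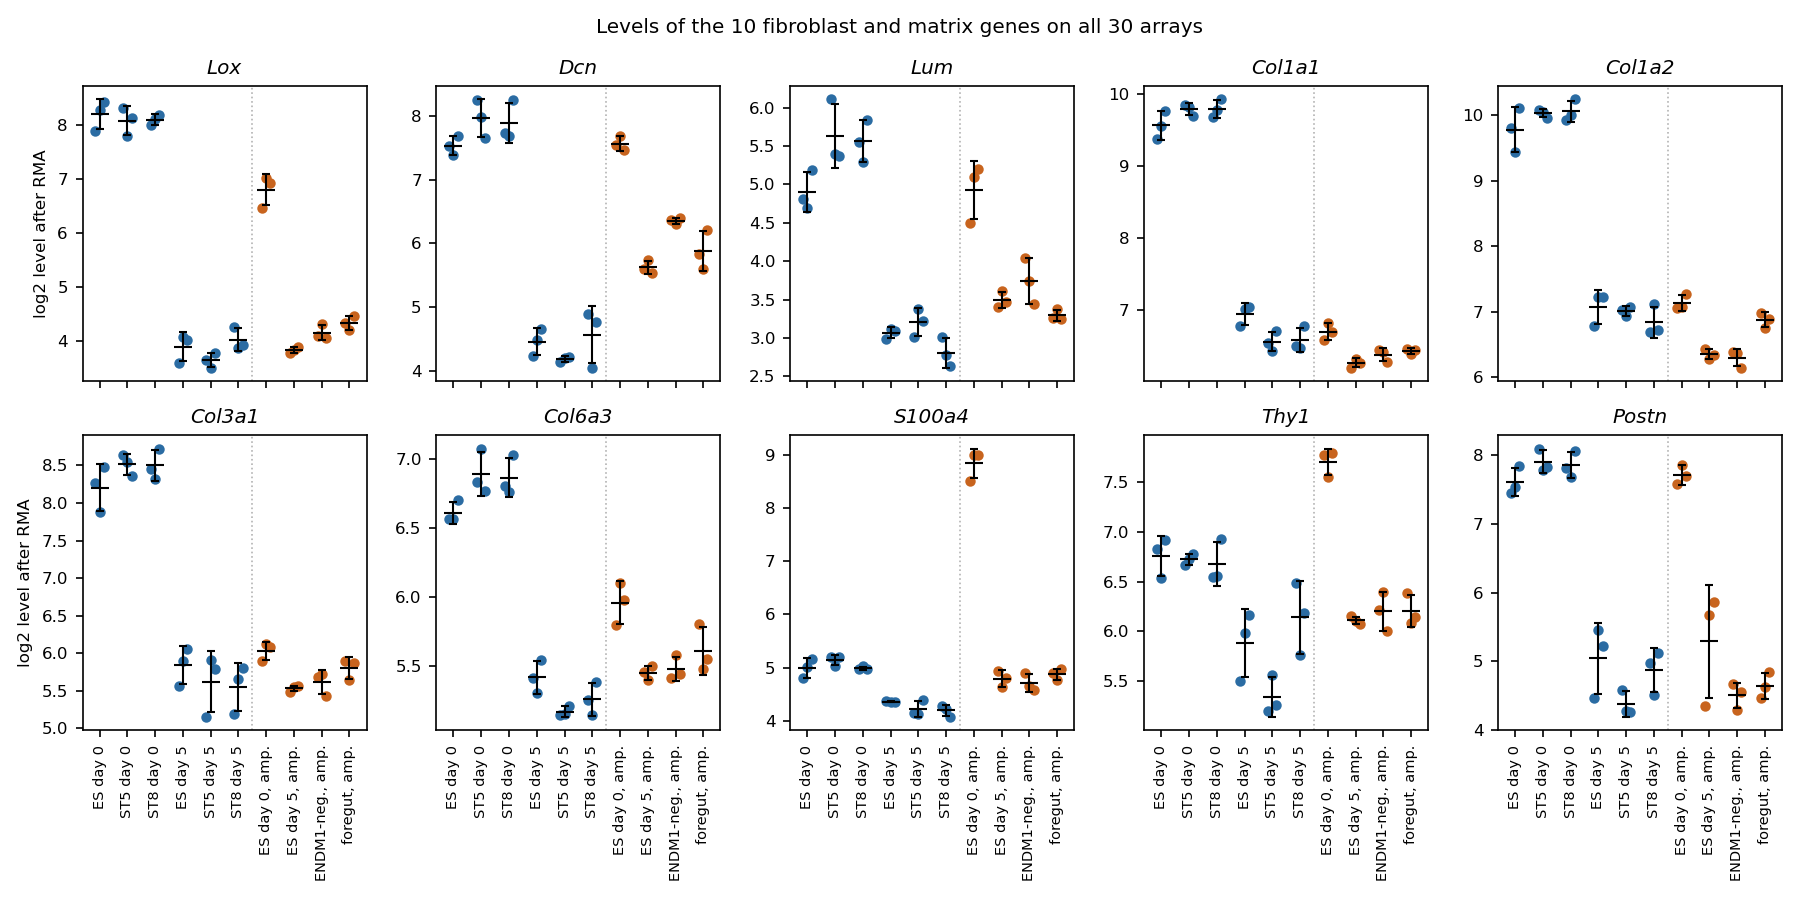
Log2 level after RMA (vertical axis, a separate scale for each gene) of the 10 members in the 10 groups, with blue for unamplified and orange for amplified arrays. Points are the 3 arrays of a group, and the black bar is their mean with SD. Day 0 means stand above day 5 means for every member within each labelling.

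Among the fibrillar collagens, Col1a1 and Col1a2 encode both chains of type I collagen, the main fibre of skin, bone and tendon. Col1a1 levels at day 0 were 9.37, 9.55 and 9.76 in ES cells, 9.84, 9.81 and 9.70 in ST5, and 9.67, 9.77 and 9.92 in ST8. At day 5 they were 6.78, 7.01 and 7.04 in ES cells, 6.54, 6.43 and 6.70 in ST5, and 6.50, 6.46 and 6.77 in ST8. Every day 0 array was above every day 5 array, with little spread inside either day. The difference was -2.62 ± 0.11 in ES cells (adjusted p = 4.61e-11), -3.22 ± 0.11 in ST5 and -3.21 ± 0.11 in ST8.

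Col1a2 levels at day 0 were 9.79, 9.43 and 10.11 in ES cells, 10.08, 10.05 and 9.96 in ST5, and 9.93, 10.003 and 10.24 in ST8. At day 5 they were 6.77, 7.23 and 7.21 in ES cells, 7.02, 6.93 and 7.07 in ST5, and 6.69, 7.11 and 6.71 in ST8. The second ES array was the lowest of the day 0 arrays and still far above all day 5 arrays. Col1a2 fell by 2.71 ± 0.16 in ES cells, by 3.02 ± 0.16 in ST5 and by 3.22 ± 0.16 in ST8 on the log2 scale. Col3a1, the chain of type III collagen, which forms fibres together with type I in soft tissues, ranged from 7.87 to 8.72 on the 9 unamplified day 0 arrays and from 5.15 to 6.06 on the 9 day 5 arrays. It fell by 2.37 ± 0.21, 2.90 ± 0.21 and 2.95 ± 0.21 in ES cells, ST5 and ST8. Col6a3, a chain of collagen VI, had a narrower gap, with 6.56 to 7.07 at day 0 against 5.14 to 5.54 at day 5. It fell by 1.19 ± 0.09, 1.72 ± 0.09 and 1.60 ± 0.09 in ES cells, ST5 and ST8, smaller than those of the fibrillar chains on this scale, where the probe sets differ.

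Lox encodes lysyl oxidase, the enzyme that starts the cross-links of collagen and elastin, and lies at chromosome 18, 52516060 to 52529867. Its levels at day 0 were 7.88, 8.27 and 8.42 in ES cells, 8.32, 7.78 and 8.12 in ST5, and 7.99, 8.11 and 8.19 in ST8. At day 5 they were 3.58, 4.06 and 4.02 in ES cells, 3.63, 3.50 and 3.76 in ST5, and 4.25, 3.86 and 3.93 in ST8. The day 5 arrays lay below the array median and the day 0 arrays well above it. Lox had the largest fall of the members in each line, by 4.31 ± 0.16 in ES cells (adjusted p = 8.91e-12), 4.44 ± 0.16 in ST5 and 4.08 ± 0.16 in ST8.

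Decorin (Dcn) and lumican (Lum) are small leucine-rich proteoglycans that coat collagen fibrils. Dcn at day 0 read 7.52, 7.39 and 7.68 in ES cells, 8.248, 7.99 and 7.66 in ST5, and 7.73, 7.69 and 8.251 in ST8. At day 5 Dcn read 4.24, 4.48 and 4.65 in ES cells, 4.13, 4.19 and 4.22 in ST5, and 4.88, 4.05 and 4.76 in ST8. The days were more than 2 log2 units apart in every line, and ST8 varied most at day 5. Dcn fell by 3.08 ± 0.20, 3.78 ± 0.20 and 3.33 ± 0.20 in ES cells, ST5 and ST8. Lum was lower on its probe set, with day 0 levels of 4.81, 4.70 and 5.19 in ES cells, 6.11, 5.40 and 5.37 in ST5, and 5.56, 5.29 and 5.84 in ST8. At day 5 Lum ranged from 2.63 to 3.38 over the 9 arrays. All 3 ES arrays at day 0 were below all 6 arrays of the clones, yet above every day 5 array. Lum fell by 1.83 ± 0.19 in ES cells, by 2.42 ± 0.19 in ST5 and by 2.75 ± 0.19 in ST8.

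Periostin (Postn) is a matricellular protein that helps collagen fibrils assemble. Postn at day 0 read 7.46, 7.54 and 7.85 in ES cells, 8.10, 7.79 and 7.83 in ST5, and 7.82, 7.68 and 8.06 in ST8. At day 5 it read 4.46, 5.45 and 5.22 in ES cells, 4.59, 4.28 and 4.26 in ST5, and 4.97, 4.51 and 5.13 in ST8. The first ES array stood below its partners at day 5, where the SD of ES cells was 0.52. Postn fell by 2.57 ± 0.21 in ES cells, by 3.53 ± 0.21 in ST5 and by 2.98 ± 0.21 in ST8.

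S100a4, a small calcium-binding protein often used as a fibroblast marker, and Thy1, a surface glycoprotein of fibroblasts, T cells and neurons, showed the smallest differences. S100a4 at day 0 read 4.80, 5.02 and 5.16 in ES cells, 5.20, 5.04 and 5.19 in ST5, and 4.98, 5.03 and 4.97 in ST8, against 4.08 to 4.39 over the 9 day 5 arrays. It was below the array median on both days, and fell by 0.63 ± 0.09, 0.92 ± 0.09 and 0.79 ± 0.09 in ES cells, ST5 and ST8. Thy1 at day 0 read 6.83, 6.54 and 6.92 in ES cells, 6.67, 6.73 and 6.77 in ST5, and 6.55, 6.56 and 6.94 in ST8. At day 5 Thy1 read 5.50, 5.98 and 6.17 in ES cells, 5.20, 5.57 and 5.25 in ST5, and 6.48, 5.76 and 6.18 in ST8. The first ST8 array at day 5 lay just under the lowest day 0 arrays. Thy1 fell by 0.88 ± 0.18 in ES cells (adjusted p = 0.00109) and by 1.39 ± 0.18 in ST5 (adjusted p = 8.92e-06). In ST8 the fall of Thy1 was 0.54 ± 0.18 (adjusted p = 0.0275), which no longer passed when ST8 day 5 replicate 2 (adjusted p = 0.147) or ST8 day 0 replicate 3 (0.132) was left out, or in a fit of the ST8 groups alone (0.0758).

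**Figure D2:**
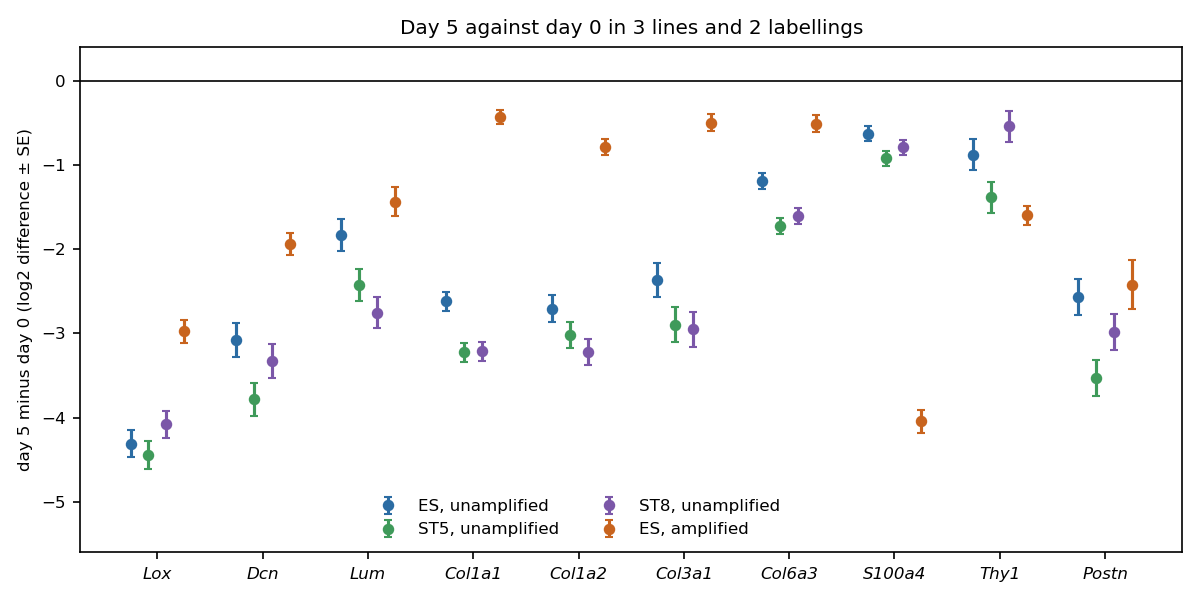
Day 5 minus day 0 (log2 difference, vertical axis) of each member in ES cells, ST5 and ST8 without amplification and in ES cells after amplification. Points are limma estimates from 3 arrays a group, bars are SE, and all 40 lie below 0. Amplified ES cells stand closer to 0 for the collagens and far lower for S100a4.

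At day 0 the member differences between ST5 and ES cells ran from -0.12 to 0.73, with a median of 0.26 beside 0.0003 over all genes. Between ST8 and ES cells they ran from -0.10 to 0.66, with a median of 0.25 beside -0.02, and both comparisons share the same ES arrays. In ST5 against ES cells 3 members had an unadjusted p under 0.05 in limma (Lum, Dcn and Col6a3). The single call was Lum in ST5, higher than in ES cells by 0.73 ± 0.19 (adjusted p = 0.0434), against 3.22% of all genes called in either direction. This call was lost in 4 of the 6 fits without 1 array, namely without ES replicate 1 or 2 or ST5 replicate 1 or 2, where adjusted p reached 0.174. It was also lost with the replicate number as a block (adjusted p = 0.0648), after a further quantile normalization (0.0518) and in a fit of both groups alone (0.0693). Lum in ST8 was 0.66 ± 0.19 above ES cells (adjusted p = 0.0648, and 0.0338 in a fit of both groups alone). No member was called between ST8 and ES cells in limma, where 2 had an unadjusted p under 0.05 (Lum and Col6a3) and 3.55% of all genes were called. Between ST8 and ST5 no member was called and 0 had an unadjusted p under 0.05, against 0.0652% of all genes called, and the member differences ran from -0.15 to 0.03.

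At day 5, 3 members were lower in ST5 than in ES cells, against 23.3% of all genes called in either direction. Col1a1 was lower by 0.38 ± 0.11 (adjusted p = 0.0241), Thy1 by 0.55 ± 0.18 (0.0429) and Postn by 0.67 ± 0.21 (0.0335). All 3 calls were lost without ES replicate 2 or without ES replicate 3, and with arrays shifted to a common median (adjusted p of 0.0503 to 0.068). Thy1 and Postn were also lost after a further quantile normalization (0.0822 and 0.0633) and in a fit of both groups alone (0.0769 and 0.0984), and Postn in a fit of all 30 arrays (0.0738). Without ST5 replicate 1 the calls of Col1a1 and Thy1 were lost, without replicate 2 those of Col1a1 and Postn, and without replicate 3 those of Thy1 and Postn (adjusted p up to 0.201 over these 5 fits). Thy1 was higher in ST8 than in ST5 by 0.80 ± 0.18 (adjusted p = 0.0117), the only member called in this comparison, where 14.6% of all genes were called. It was lost without ST8 replicate 1 (adjusted p = 0.0742) or 3 (0.0572), without ST5 replicate 1 (0.0511), or in a fit of both groups alone (0.121), and without ST8 replicate 2 Dcn and Postn were called as well. ST8 and ES cells had no member called in limma at day 5, with 1 (Col1a1) at an unadjusted p under 0.05 and 0.958% of all genes called. Col1a1 differed there by -0.36 (adjusted p = 0.139, and 0.044 without ES replicate 1), close to its difference between ST5 and ES cells. Between ST5 and ES cells Col6a3 was called where dim genes were left out (-0.25, adjusted p = 0.0438).

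The size of the fall between days was then compared between lines as a difference of differences. Between ST5 and ES cells it ran from -0.96 to -0.14 over the 10 members, with a median of -0.53 beside -0.03 over all genes. Of these members 6 had an unadjusted p under 0.05 in limma. The fall was called larger in ST5 than in ES cells for Col1a1, by -0.61 ± 0.16 (adjusted p = 0.0375), and for Col6a3, by -0.53 ± 0.13 (adjusted p = 0.032), while 5.58% of all genes were called. Col1a1 lost this call without ES day 0 replicate 1 or 2, ES day 5 replicate 2 or 3, ST5 day 0 replicate 1 or 2, or ST5 day 5 replicate 1 or 2 (adjusted p up to 0.104). Col6a3 lost it without ES day 0 replicate 1 or 2, ES day 5 replicate 3, ST5 day 0 replicate 2, or any ST5 day 5 replicate (adjusted p up to 0.0948). Both calls were lost after a further quantile normalization (0.0501 and 0.0646). Dcn was called as well in a fit of these groups alone (-0.71, adjusted p = 0.0428) and Postn where dim genes were left out (-0.96, 0.0498). Without ES day 5 replicate 1, Postn was called as well (-1.25, adjusted p = 0.00348). Between ST8 and ES cells no member was called in limma, with 4 at an unadjusted p under 0.05 and 0.838% of all genes called. Col1a1 differed there by -0.59 (adjusted p = 0.112) and Col6a3 by -0.41 (0.2), so the larger fall of Col1a1 is not shown to be particular to ST5. Col1a1 was called in a fit of all 30 arrays (0.0422) and without ES day 5 replicate 1 (0.0394). Between ST8 and ST5 none was called, with 1 (Thy1) at an unadjusted p under 0.05 and 2.17% of all genes called. Without ST8 day 5 replicate 2, Thy1 (adjusted p = 0.00635) and Dcn (0.0408) were called, and Thy1 also in a fit of all 30 arrays (0.0466).

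The members varied together among replicate arrays, at day 0 and in other groups. Unamplified ES day 5 replicate 1 was the lowest array of its group for 8 members, with a mean deviation of -0.23. Foregut replicate 2 was lowest for 8 and ENDM1 negative replicate 3 for 7, and the shares of all genes lowest on these arrays were not counted. At day 0, replicate 3 of ES cells had the highest level of all 10 members, although it was the highest array for 36.3% of all genes. ST5 replicate 1 was highest for 8 members (37.1% of all genes) and ST8 replicate 3 for 9 (32.0% of all genes). The excess over the group mean was small, at most 0.33 for ES cells, 0.48 for ST5 and 0.36 for ST8. Other matrix genes shared part of it: 12 of 18 genes of fibronectin, elastic fibres and matricellular proteins, and 9 of 13 matrix proteases and inhibitors, were highest on ES replicate 3, against 2 of 6 pluripotency genes. On ST5 replicate 1 all 6 definitive endoderm genes were also highest. The part of these arrays in the results was not tested beyond leaving each out, after which all 10 members were still called lower at day 5 in ES cells and in ST5. Without ST8 day 0 replicate 3, the fall of Thy1 in ST8 was no longer called (-0.41, adjusted p = 0.132), and the other 9 were.

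**Figure D3:**
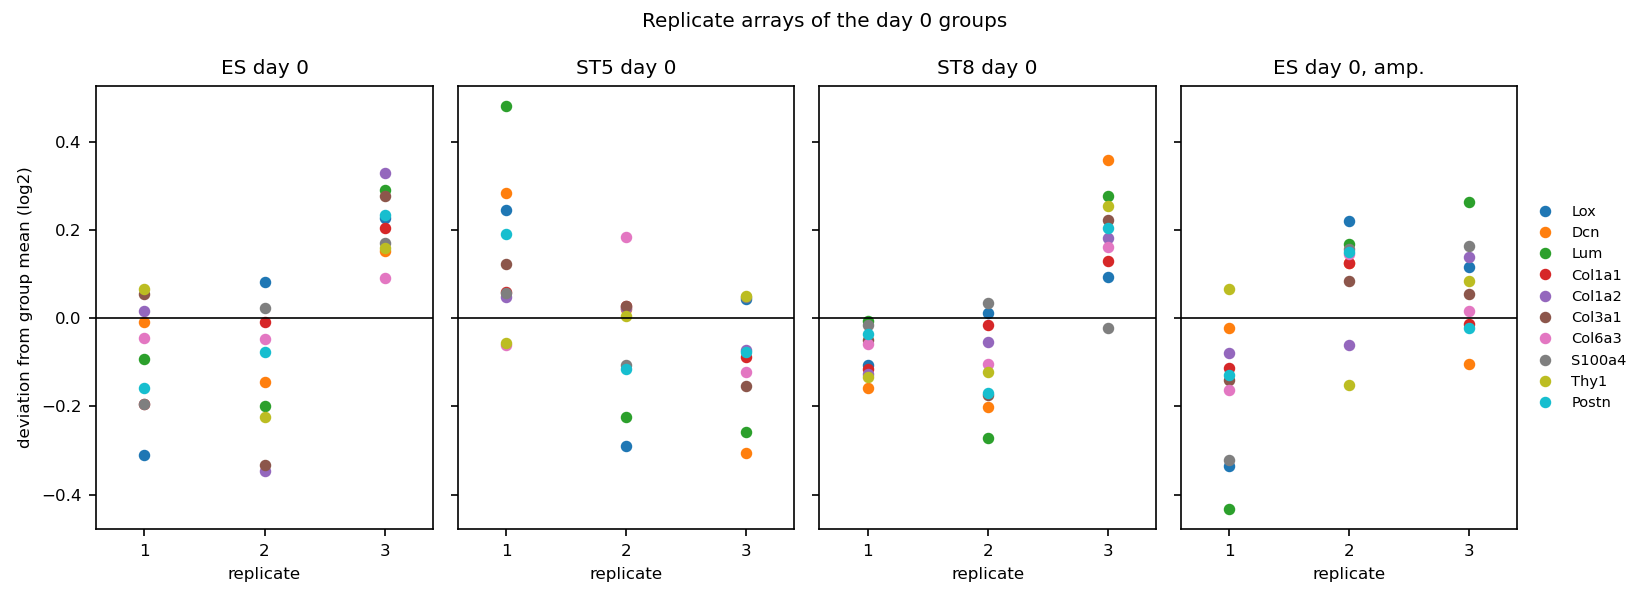
Deviation of each member from the mean of its group (log2, vertical axis) on the 3 arrays of the day 0 groups, with 1 colour per gene. All 10 points of ES replicate 3 lie above 0, as do 8 of ST5 replicate 1 and 9 of ST8 replicate 3.

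Over the 18 unamplified arrays the 45 pairs of members had Pearson correlations of 0.78 to 0.99 with a median of 0.97, and over the 12 amplified arrays of 0.59 to 0.99 with a median of 0.87. These arrays share the contrast between days, and the values are a description. The genes most like the mean of the members over the unamplified arrays, by Pearson correlation, were Bgn, Mmp3, Emp1, Dppa4, Thbs2, Pcolce, Dppa3, Ddr2, Pramel13 and Dppa2, all at 0.99. Biglycan (Bgn), thrombospondin 2 (Thbs2), the procollagen C-proteinase enhancer (Pcolce), the protease stromelysin 1 (Mmp3) and the collagen receptor Ddr2 are matrix genes or act on matrix, while Dppa2, Dppa3 and Dppa4 are germline and pluripotency genes. Bgn fell by 4.08 ± 0.23 and Dppa4 by 4.04 ± 0.12 in ES cells. A profile of this shape was thus shared by genes of the matrix and of pluripotent cells. Over the amplified arrays the nearest genes were Ccl2, Cav1, Ooep, Mmp3, Hsf2bp, Psma8, Osmr, Bgn, Pcolce and Rpl39l, of which Mmp3, Bgn and Pcolce stood in both sets.

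Single members had like neighbours. Col1a1 was closest to Col5a2, Pcolce and Bgn, and Col6a3 closest to Col6a1, which encodes another chain of the same trimer. Lox was closest to Aspn, Fbxo15 and Tdrd12, Postn to Thbs2, Bgn and Nup85, and Dcn to Thbs2, Dennd2c and Bop1. For S100a4 and Thy1 the nearest genes reached correlations of only 0.98, with Ifi202b and Cep57.

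The other genes of matrix making did not all follow the members. Of all 19938 genes, 7689 were called in either direction in ES cells, where 19.7% were called lower. In ST5 9560 were called and in ST8 8074. The list counts below were not tested against these. Of 10 other fibrillar and collagen VI chains, 4 fell and 1 rose in ES cells, with a median of -0.09 beside 0.02 over all genes. Col5a2, a chain of type V collagen that lies next to Col3a1 in the genome, fell by 1.67 ± 0.08, and Col6a1 fell by 0.99 ± 0.11. Genes beside the members went both ways. Wdr75, beyond Col5a2, fell by 0.58 ± 0.09, and Gulp1, on the other side of Col3a1, rose by 2.05 ± 0.28. Casd1 and Sgce, which follow Col1a2 on chromosome 6, rose by 1.54 ± 0.11 and 1.41 ± 0.14. Col2a1, the cartilage collagen, rose by 1.66 ± 0.11. Collagen folding and processing genes were split, with 6 of 13 higher and 3 lower. Serpinh1, the collagen chaperone of the endoplasmic reticulum, rose by 1.13 ± 0.12 and P4ha1, a prolyl hydroxylase subunit, by 1.12 ± 0.12, while Pcolce fell by 2.95 ± 0.10. ST5 and ST8 each had 7 of these 13 genes higher and 4 lower.

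Of the 3 other lysyl oxidases measured, Loxl3 fell by 1.09 ± 0.12 and Loxl1 by 0.71 ± 0.07 in ES cells. Among 9 further leucine-rich proteoglycans 5 fell, with Bgn and asporin (Aspn, by 3.37 ± 0.16) in front, and Podn rose by 0.26 ± 0.09. Kera and Epyc, which follow Dcn and Lum on chromosome 10 and belong to the same family, differed by 0.05 and -0.00 and were not called. Of 18 genes of fibronectin, elastic fibres and matricellular proteins 10 fell and 4 rose, beside 19.7% of all genes called lower. Thrombospondin 1 (Thbs1) fell by 3.63 ± 0.22 and tenascin C (Tnc) by 2.49 ± 0.36, and the fibrillin Fbn2 rose by 2.63 ± 0.32. In ST8 Tnc fell by 1.18 ± 0.36, and in ST5 it differed by 0.82 ± 0.36 and was not called (adjusted p = 0.0684). Of 13 matrix proteases and inhibitors 8 fell and 2 rose, with Mmp3 lower by 4.45 ± 0.15, its inhibitor Timp1 lower by 2.93 ± 0.13 and the membrane protease Mmp14 higher by 0.98 ± 0.15.

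Genes that mark mesenchymal cells by other functions moved both ways. Of 15 receptors and transcription factors 5 fell and 2 rose in ES cells, 10 fell and 1 rose in ST5, and 8 fell and none rose in ST8. The shares of all genes called lower were 19.7%, 24.8% and 19.5%. Ddr2 fell by 2.01 ± 0.13 and the factor Prrx1 by 1.07 ± 0.24 in ES cells, whereas Twist1 rose by 0.85 ± 0.22. Of 12 contractile genes 1 fell and 2 rose in ES cells. Of 9 other S100 genes 4 fell and 2 rose, and S100a6, near S100a4 on chromosome 3, fell by 1.98 ± 0.15. S100a3 and S100a5, also near S100a4, differed by -0.21 and -0.06 and were not called, and S100a1 rose by 0.67 ± 0.11. Of 5 endothelial genes Pecam1, also expressed by ES cells, fell by 2.93 ± 0.14, Tek fell by 1.06 ± 0.09 and Kdr rose by 0.49 ± 0.17. Cdh5, the cadherin of endothelium, had mean levels of 4.57 in ES cells at day 0 and 4.64 at day 5. The part that cells of other types had in these levels was not tested.

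**Figure D4:**
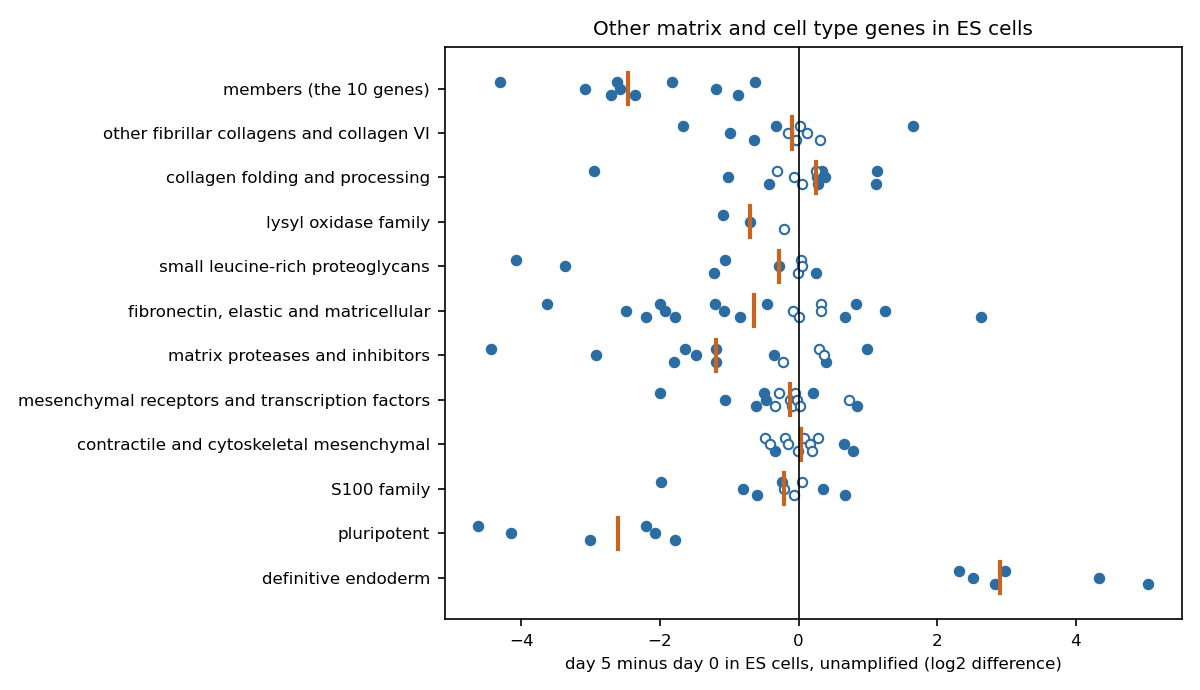
Day 5 minus day 0 in ES cells without amplification (log2 difference, horizontal axis) for the 10 members and for lists of other genes, 1 point per gene. Filled points passed the test, open points did not, and the orange bar is the median of the list. The members and the pluripotency genes lie wholly below 0 and the definitive endoderm genes wholly above it. The 3 other lysyl oxidases also lie below 0, and the remaining lists have points on both sides.

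After amplification all 10 members were again called lower at day 5 than at day 0 in ES cells, against 13.8% of all genes. The median difference of the members was -1.52, beside -0.02 over all genes. Type I collagen and S100a4 stood out from the unamplified arrays.

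Col1a1 levels after amplification were 6.59, 6.82 and 6.69 at day 0 and 6.20, 6.32 and 6.27 at day 5. These are close to each other, and the difference was -0.44 ± 0.08 (adjusted p = 0.00148). Col1a2 read 7.05, 7.07 and 7.27 at day 0 and 6.43, 6.28 and 6.33 at day 5, a difference of -0.79 ± 0.10. S100a4, in contrast, read 8.52, 8.995 and 9.002 at day 0 and 4.94, 4.63 and 4.81 at day 5. It was the member with the largest fall after amplification, by 4.04 ± 0.14 (adjusted p = 8.44e-10). Lox read 6.46, 7.02 and 6.91 at day 0 and 3.77, 3.82 and 3.87 at day 5, a fall of 2.98 ± 0.13. Dcn read 7.54, 7.69 and 7.46 at day 0 and 5.59, 5.74 and 5.53 at day 5, a fall of 1.94 ± 0.13. Thy1 read 7.78, 7.56 and 7.79 at day 0 and 6.15, 6.11 and 6.07 at day 5, and fell by 1.60 ± 0.11. Postn read 7.58, 7.86 and 7.69 at day 0 but 4.34, 5.67 and 5.86 at day 5, so 1 array stood well below the others, and the fall was 2.42 ± 0.29. Lum fell by 1.44 ± 0.17, Col6a3 by 0.51 ± 0.10 and Col3a1 by 0.50 ± 0.10.

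The day 5 minus day 0 difference of ES cells was compared between the labellings in a fit of all 30 arrays, a test added after the data were seen. It differed for 7 of 10 members, against 2.39% of all genes. It was less negative after amplification for Col1a1, by 2.18 ± 0.14 (adjusted p = 2.93e-10), for Col1a2, by 1.92 ± 0.20 (1.13e-06), and for Col3a1, by 1.87 ± 0.25 (5.6e-05). The same held for Lox, by 1.33 ± 0.22 (0.000831), Dcn, by 1.14 ± 0.26 (0.0149), and Col6a3, by 0.68 ± 0.14 (0.00607). S100a4 went the other way, with a difference of -3.41 ± 0.16 (adjusted p = 8.57e-13). Lum (0.39 ± 0.27, adjusted p = 0.609), Thy1 (-0.72 ± 0.23, 0.12) and Postn (0.15 ± 0.38, 0.93) were not called. These 7 calls held without each single array, and Thy1 was called as well without ES day 5 replicate 1 (adjusted p = 0.0244). Among 10 other collagen chains 2 were called less negative, Col5a2 (by 0.80 ± 0.11) and Col6a1 (by 0.73 ± 0.15), and Col2a1 was called lower by 1.47 ± 0.15. Of the 6 pluripotency genes, Esrrb (2.55 ± 0.17) and Klf4 (1.21 ± 0.20) were called in this test too. The labels do not state whether arrays of both labellings were normalised together. They also do not say whether the amplified and unamplified ES arrays share RNA, while the fit took all arrays as independent. If RNA was shared, these SE and p do not measure the spread between separate cultures. The members were chosen with earlier results of these data known, so the count of 7 describes them and does not test them.

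In the embryo cells the median difference of the members from amplified day 5 ES cells was 0.16 in foregut and 0.09 in ENDM1 negative cells, beside 0.08 and 0.06 over all genes. The comparisons with ES cells share the same ES arrays. Against amplified ES cells at day 0, all 10 were lower in ENDM1 negative cells (11.1% of all genes called lower) and 8 were lower in foregut cells (14.2%). The exceptions in foregut were Col1a2, at -0.26 ± 0.10 (adjusted p = 0.0567), and Col3a1, at -0.23 ± 0.10 (0.11). Both were called lower after a further quantile normalization (adjusted p = 0.0297 and 0.0252) and with arrays shifted to a common median (0.0151 and 0.0313), so that all 10 were then lower. Col1a2 was also called without foregut replicate 1 (adjusted p = 0.0478) and where dim genes were left out (0.0332). S100a4 was lower than at day 0 by 3.96 ± 0.14 in foregut and by 4.12 ± 0.14 in ENDM1 negative cells, and Postn by 3.07 ± 0.29 and 3.21 ± 0.29. In foregut Col1a1 was lower by 0.27 ± 0.08 and Col6a3 by 0.35 ± 0.10, and both calls were lost without amplified ES day 0 replicate 2 or 3 or without foregut replicate 2 or 3 (adjusted p of 0.054 to 0.105). In ENDM1 negative cells Col1a1, lower by 0.32 ± 0.08, was lost without amplified ES day 0 replicate 2 (adjusted p = 0.0513), and Col3a1, lower by 0.42, in a fit of all 30 arrays (0.0759).

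Foregut and ENDM1 negative cells differed in Col1a2 and Dcn, against 8.14% of all genes called in either direction. Col1a2 read 6.98, 6.75 and 6.88 in foregut and 6.38, 6.37 and 6.14 in ENDM1 negative cells, with no overlap, and was higher in foregut by 0.58 ± 0.10 (adjusted p = 0.0029). Dcn read 5.83, 5.59 and 6.21 in foregut and 6.36, 6.30 and 6.40 in ENDM1 negative cells, again with no overlap. It was lower in foregut by 0.48 ± 0.13 (adjusted p = 0.0415). This call was lost without each ENDM1 negative array and without foregut replicate 1 or 2, with adjusted p of 0.0788 to 0.134 without those arrays. It was also lost with the replicate number as a block (adjusted p = 0.0666), in a fit of all 30 arrays (0.0914) and in a fit of both groups alone (0.0789). Col1a1, the partner chain of Col1a2, read 6.46, 6.39 and 6.45 in foregut and 6.44, 6.42 and 6.28 in ENDM1 negative cells, and the groups overlapped. Lum, at -0.45 ± 0.17 (adjusted p = 0.143), and the other members were not called.

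Against amplified ES cells at day 5, foregut was higher in Lox, by 0.50 ± 0.13 (adjusted p = 0.0154), and in Col1a2, by 0.53 ± 0.10 (0.00187), while 24.2% of all genes were called. Lox read 4.32, 4.19 and 4.45 in foregut, above the 3.77, 3.82 and 3.87 of day 5 ES cells, and its call was lost without foregut replicate 3 (adjusted p = 0.064). ENDM1 negative cells were higher than day 5 ES cells in Dcn, by 0.73 ± 0.13 (adjusted p = 0.00117), with 26.3% of all genes called. Postn was 0.65 ± 0.29 and 0.79 ± 0.29 below day 5 ES cells in foregut and ENDM1 negative cells and not called (adjusted p = 0.125 and 0.0642). Without the low array, amplified ES day 5 replicate 1, these differences were -1.12 (adjusted p = 9.87e-05) and -1.26 (3.8e-05). Without foregut replicate 2, Dcn and Col3a1 were also higher in foregut than at day 5.

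The lists of other matrix genes held both called and uncalled genes in foregut against ENDM1 negative cells, where 8.14% of all genes were called, and the lists were not tested against each other. Of 18 genes of fibronectin, elastic fibres and matricellular proteins 5 were higher in foregut and 1 lower. The proteoglycan versican (Vcan) was higher by 1.24 ± 0.14, fibronectin (Fn1) was higher by 1.23 ± 0.09 and Efemp1 was lower by 0.84 ± 0.10. Of 13 folding and processing genes 4 were higher, among them the prolyl hydroxylase subunit P4ha3 by 1.30 and the lysyl hydroxylase Plod2 by 1.10. Of 13 matrix proteases and inhibitors 4 were higher, led by the inhibitor Timp2 (by 0.84 ± 0.11) and the protease Mmp2 (by 0.80 ± 0.13). Of 10 other fibrillar and collagen VI chains 1 was higher, Col11a1 by 0.62 ± 0.10. In limma 0 of the 9 further leucine-rich proteoglycans and 0 of the 3 other lysyl oxidases were called, with unadjusted p under 0.05 for 0 and for 2 (Loxl1 and Loxl4) of them.

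Among genes of other functions, 6 of 12 contractile genes were higher in foregut, beside 8.14% of all genes called in either direction. Myl9 was higher by 1.11 ± 0.18 and Tagln by 1.04 ± 0.23. Of 15 mesenchymal receptors and transcription factors 2 were higher and 3 lower, among them Prrx1, higher by 0.72 ± 0.18, and Zeb2, lower by 1.54 ± 0.27. Of 9 other S100 genes S100g was higher by 3.09 ± 0.27 and S100a6 lower by 2.50 ± 0.29. All 5 endothelial genes were lower in foregut, with Cdh5 at mean levels of 5.44 in foregut and 8.15 in ENDM1 negative cells. Over the 5 genes the mean level ran from 4.69 to 4.86 on the foregut arrays and from 6.26 to 6.997 on the ENDM1 negative arrays. Their part in the difference of Dcn and Col1a2 was not tested.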

How the data were processed

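Expression was measured on 30 arrays in 10 groups of 3. The authors deposited log2 values made with RMA, as the submitters' processing notes say. Its version, and whether both labellings were processed together, are not given in the sources used here, so levels were compared within a labelling. RMA pulls low signals toward a floor, which can shrink differences of dim genes. Arrays have no read depth, and their number limits the precision.

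Of 35556 probe sets, 21789 had 1 gene in the annotation, 1621 had several and 12146 were not listed. The probe set with the highest mean was kept for each of 19938 genes. Entrez IDs matched RefSeq for 21698 probe sets (99.6%). Lepre1 and P3h1 are names of 1 gene. The list genes Adamts2, Fkbp10, Loxl2, Spp1, Fbn1 and Efemp2 were not analysed here. limma 3.58.1 in R 4.3.3 (package data.table, version 1.17.8) fitted 1 mean per group to the 18 unamplified arrays (12 residual degrees of freedom) and to the 12 amplified arrays (8), with two-sided moderated tests and Benjamini-Hochberg adjustment. The fits were tested on simulated data with 50 changed genes for each size of change. For a log2 change of 0.5, 64% were called in the unamplified layout and 60% in the amplified one. For a change of 1, 96% and 98% were called. An uncalled difference near 0.5 can thus be a missed one. No arrays held identical values.

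Text genes were drawn from a pool set by a rule. It held all members, the genes most correlated with them and genomic neighbours. From each list it took the 2 genes that rose most and the 2 that fell most among those called. Not every gene of this pool is named, so the named genes are examples. Col1a1 and Cdh5 levels, Kdr, Tek, Col6a1 and Esrrb or Klf4 were added where they bear on a result. Members and lists were chosen with earlier results of these data known. The alternatives are in the closing section.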

Additional observations from a re-analysis of the deposited data

Results flagged for a closer look

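The fall of Col1a1 and of Col6a3 between day 0 and day 5 was larger in ST5 than in ES cells, with differences of -0.61 and -0.53 on the log2 scale by a test of the difference itself. The call of Col1a1 was lost in 8 fits without 1 array and that of Col6a3 in 7, and both were lost after a further quantile normalization (adjusted p in limma of 0.0501 and 0.0646). In ST8 the same differences from ES cells were -0.59 and -0.41 and not called (adjusted p = 0.112 and 0.2). Between the labellings, the day 5 minus day 0 difference of ES cells differed by 2.18 for Col1a1, 1.92 for Col1a2, 1.87 for Col3a1, 1.33 for Lox, 1.14 for Dcn, 0.68 for Col6a3 and -3.41 for S100a4. These are amplified minus unamplified values, again from a test of the difference, which took the arrays of both labellings as independent.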

How the results depend on the processing

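Alternatives covered normalization, a filter on dim genes, the probe set rule, the spread model, the arrays in the fit, the replicate block and each array left out, in 39 settings over 19 comparisons. Of 3016 values of single members, 1104 stayed called, 1816 stayed uncalled, 70 lost a call and 26 gained one, and 76 changed sign, none of the last with a call on either side. Counts that moved by more than 1.5 times are given here, and most of the single calls that changed elsewhere stand beside their results. All 10 members were called lower at day 5 in ES cells and ST5 without each array, and 9 to 10 in ST8. Leaving out genes under the median level tests fewer members, which gave counts called of 4 for amplified ES cells at day 5 against day 0, 4 for foregut and 4 for ENDM1 negative cells against amplified day 0, 4 for the difference between labellings, 1 for foregut against amplified day 5 and 0 for ST5 against ES cells at day 0. A further quantile normalization gave 0 for ST5 against ES cells at day 0, 1 at day 5 and 0 for the difference of their responses, and a common median gave 0 at day 5. Fits of only the groups compared gave 0 for ST5 and 1 for ST8 against ES cells at day 0, 1 for ST5 against ES cells and 0 for ST8 against ST5 at day 5, 1 for foregut against ENDM1 negative cells and 2 for ENDM1 negative cells against amplified day 5. All 30 arrays in one fit gave 1 for the response of ST8 against ES cells and 1 against ST5, 1 for foregut against ENDM1 negative cells and 2 for ENDM1 negative cells against amplified day 5. Beyond the dim gene filter, the cause was not tested.

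Counts without each array ran from 0 to 1 for ST5 against ES cells at day 0 and 0 to 3 at day 5, 0 to 1 for ST8 against ES cells at day 5, 0 to 3 for ST8 against ST5 at day 5, 0 to 3 for the response of ST5 against ES cells, 0 to 1 for ST8 against ES cells and 0 to 2 for ST8 against ST5. They ran from 1 to 2 for foregut against ENDM1 negative cells, 1 to 4 for foregut and 1 to 2 for ENDM1 negative cells against amplified day 5, 6 to 9 and 9 to 10 against amplified day 0, and 7 to 8 for the difference between labellings. Same-numbered arrays had correlations of their deviations from -0.65 to 0.50, with both ends between ST8 and ES cells at day 5. Deviations within a group of 3 arrays are tied to each other, so these values cannot settle whether the replicate numbers pair the samples. With the replicate block the count was 0 for ST5 against ES cells at day 0 and 1 for foregut against ENDM1 negative cells, and no other count changed. Over all genes, calls for ST8 against ST5 at day 5 ranged from 3 to 5951 against 2909, for ST5 against ES cells at day 5 from 1928 to 6503 against 4653, and for the response of ST8 against ST5 from 28 to 3952 against 432.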
